A study of Mus musculus with 2 samples.

Results

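The genes described here encode potassium channel subunits, and they were chosen as all genes on the array whose symbol begins with Kcn, other than Kcnn4. This gave 83 of 18194 named genes, of which 80 encode channel or auxiliary subunits and 3 (Kcnq1ot1, Kcnmb4os1 and Kcnmb4os2) are noncoding transcripts that share the prefix. The rule itself used the gene symbol and no measured value. Expression was measured on 2 Affymetrix mouse arrays, 1 for the colon and 1 for the small intestine, from total RNA of biopsies of wild-type, adult mice. The strain, the number of animals behind each RNA and any treatment are not given in the labels. The study compared these tissues by sequencing, and arrays served as the second platform. The sequencing data were not analysed here.

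Potassium channels let potassium ions leave or enter cells along their electrochemical gradient, and they set the membrane voltage. In the intestinal epithelium, channels of the basolateral membrane return the potassium that the sodium pump and the sodium-potassium-chloride cotransporter bring in, which keeps the driving force for chloride secretion and sodium-coupled uptake, and apical channels secrete potassium into the lumen. In the smooth muscle, pacemaker cells and nerves of the gut wall, other channels of the same families shape slow waves, contraction and firing.

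Values are normalized expression values on the log2 scale, and a level of 5 was taken as background, so that lower values were raised to 5 before a difference was formed. A difference is the small intestine minus the colon on the log2 scale, and the threshold for calling a gene higher on 1 of the arrays was 3-fold, which is 1.58 on the log2 scale. The words at least mark a fold against a tissue at background, which is a lower bound. Each tissue had 1 array, so there is no replicate check, no test and no p-value. The only measures of spread are technical. Differences between probe sets of the same gene had a pooled SD of 0.54 (3535 genes), and 18 hybridization spike-in probe sets differed by -0.25 on average, with an SD of 0.67. Because the arrays measured whole tissue, fewer cells of a type and less RNA per cell cannot be told apart.

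Region markers followed the tissue labels. All 5 measured colon markers were called higher in the colon, among them Car1 with 15.49 in colon and 2.86 in small intestine, and 4 of 5 small intestine markers were called higher in the small intestine, among them Lct with 13.34 there and 3.05 in colon. The colon array also carried signal for the exocrine pancreas. All 6 measured acinar markers were called higher there, and their summed linear level was 18806 in colon and 84.9 in small intestine.

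Of the 83 genes, 20 lay above background on at least 1 array, with 10 above it on both, 7 in the colon only and 3 in the small intestine only. Over all named genes 60.5% lay above background on either array. Of these 18194 genes, 9814 were above it on both, 598 in the colon only and 604 in the small intestine only. Kcne3, Kcnk6, Kcnma1 and Kcnf1 were called higher in the colon, and Kcnj13 was called higher in the small intestine. These 5 calls are 6.02% of the 83 genes, against 6.78% of all genes called in either direction (3.33% in favour of the colon, 3.46% of the small intestine). Among the 20 genes above background they are 25%, against 11.2% of all genes above background (5.49% colon, 5.71% small intestine), but this share rests on 5 genes and on a filter by level. The share over all 83 was close to that of the whole array. Of the 20 genes, 15 had the higher deposited value in colon (75%, against 53.2% of all genes above background). For the 7 genes above background in the colon only and the 3 in the small intestine only, the filter fixed this direction. Of the 20, 5 had floored differences smaller than the SD between probe sets. Among these 5, Kcnh3 (-0.99) and Kcnq3 (-0.72) exceeded that SD without a floor. The median difference was 0 over the 83 genes and 0 over all genes. For the 83 this follows from the floor, since 63 of them were at or below background on both arrays. Among genes above background the median was -0.62 for the 20 and -0.06 for all genes. The filter also fixed the sign of the differences of those 7 and 3 genes in this median.

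**Figure D1:**
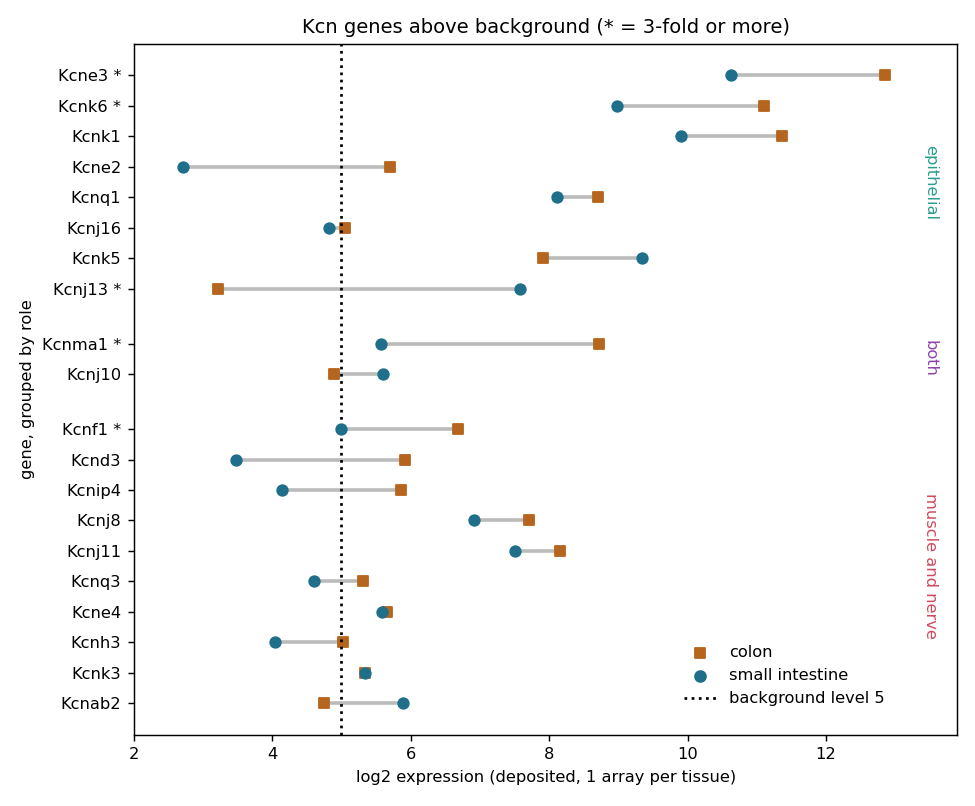
Log2 expression of the 20 Kcn genes above background on at least 1 array, on the colon array (squares) and the small intestine array (circles), grouped by role with the largest difference in favour of the colon first. The dotted line is the background level of 5 and an asterisk marks a 3-fold difference. Kcne3 runs from 10.63 in the small intestine to 12.86 in the colon, and Kcnj13 from 3.21 in the colon to 7.58 in the small intestine.

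Roles were assigned by hand with earlier results of these data known, so shares by role describe only this grouping. Among channels given a role in epithelia, 8 of 10 measured genes lay above background, against 60.5% of all genes. Calls were 2 in favour of the colon and 1 of the small intestine, against 6.78% of all genes called in either direction. The median difference over all 10 was -0.32. The 8 were 2 beta subunits, 1 voltage-gated pore, 3 two-pore-domain channels and 2 inward rectifiers.

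Kcne3 encodes a small single-span beta subunit that holds the Kcnq1 channel open in crypt cells. Its value was 12.86 in colon and 10.63 in small intestine, a difference of -2.23 or 4.68-fold. It was above background on both arrays, and it kept its 3-fold call under each other scaling (-2.20 to -1.98). With 1 probe set and both values above 6, other background levels and choices of probe set could not change its difference. Kcnq1, the pore-forming subunit of the same basolateral channel, had 8.70 in colon and 8.12 in small intestine. Its difference of -0.58 was close to the technical SD between probe sets. The differences of the beta subunit and of its pore thus lay 1.64 apart on the log2 scale. Kcne2, a second partner of Kcnq1 that is best known from acid-secreting cells of the stomach, had 5.71 in colon and 2.71 in small intestine. This amounts to at least 1.63-fold against background and was not called, although it passed 3-fold with a background of 4 (-1.71) and without a floor. Kcne1, the partner of Kcnq1 in heart and inner ear, was below background on both arrays, with 2.63 and 2.64.

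The two-pore-domain channels carry background potassium currents that are open at rest. Kcnk6 (TWIK2) had 11.10 in colon and 8.98 in small intestine, which is 4.34-fold higher in the colon. This call held under the other scalings (-2.10 to -1.87). Kcnk6 also has 1 probe set, so other background levels and choices of probe set could not change its difference. Kcnk1 (TWIK1), its close relative, had 11.37 and 9.91, or 2.75-fold, under the 3-fold rule. A second probe set of Kcnk1 had 7.30 and 5.31, a difference of -1.99 that would have been called, so both of its probe sets pointed to the colon and straddled the rule. Kcnk5 (TASK2), a pH-sensitive basolateral channel known from bicarbonate-transporting tubule cells, went the other way, with 7.91 in colon and 9.34 in small intestine. Its 2.69-fold difference was under the rule, and it reached 3-fold only after centring on spike-ins (1.68). The other probe set of Kcnk5 was below background on both arrays, at 2.71 and 2.73.

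Inward rectifiers pass potassium more easily into the cell than out of it and hold the resting voltage. Kcnj13 (Kir7.1), found on the basolateral or apical side of several ion-transporting epithelia, had 7.58 in small intestine and 3.21 in colon. Against the background level this is at least 5.99-fold in favour of the small intestine, and the deposited values differed by 4.37 on the log2 scale. With a background of 6 the difference was 1.58, just under the 3-fold rule. It was the sole member called in this direction, with 1 probe set on the array. Kcnj16 (Kir5.1) was at the edge of background, with 5.05 in colon and 4.83 in small intestine. Its partner Kcnj10 (Kir4.1), which serves both epithelia and glia, had 4.90 and 5.61, or at least 1.52-fold in favour of the small intestine. Kcnj1 (ROMK), the renal secretory channel, and Kcnj15 (Kir4.2) were below background on both arrays, with values from 3.20 to 3.72.

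Of the promoters of the 5 called genes, those of Kcnj13 and Kcnf1 have a RefSeq window whose bases before the start lie wholly outside the annotated gene. They are shown with that of Kcnk5, the other epithelial channel above background whose value was higher in the small intestine. Sequences are the 250 bases before the RefSeq start on GRCm38.p6, at chr1:87394730-87394979 for Kcnj13, chr14:20181783-20182032 for Kcnk5 and chr12:17176889-17177138 for Kcnf1, all on the minus strand and printed 5′ to 3′. Capitals mark matches, on either strand, to 6 short motifs that were chosen after the expression values were seen. TATAAA is the core of the TATA box at which transcription is positioned. AGATAA is bound by GATA factors of the small intestine. GTTAAT belongs to the site of the liver and gut factor HNF1. CAAAGT belongs to the site of the nuclear receptor HNF4. TTTATG is bound by the intestinal CDX factors. GGGCGG is the GC box of the widespread factor Sp1.
Kcnj13: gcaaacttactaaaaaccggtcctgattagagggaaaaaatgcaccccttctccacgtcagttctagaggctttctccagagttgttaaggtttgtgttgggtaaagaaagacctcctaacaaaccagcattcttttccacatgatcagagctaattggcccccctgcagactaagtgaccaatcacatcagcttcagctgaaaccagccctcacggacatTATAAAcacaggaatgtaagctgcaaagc
Kcnk5: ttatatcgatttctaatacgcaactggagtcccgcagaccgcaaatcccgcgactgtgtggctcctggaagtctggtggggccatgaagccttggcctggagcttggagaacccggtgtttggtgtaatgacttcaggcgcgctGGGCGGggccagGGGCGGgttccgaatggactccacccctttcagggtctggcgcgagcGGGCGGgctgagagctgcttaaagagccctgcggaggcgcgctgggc
Kcnf1: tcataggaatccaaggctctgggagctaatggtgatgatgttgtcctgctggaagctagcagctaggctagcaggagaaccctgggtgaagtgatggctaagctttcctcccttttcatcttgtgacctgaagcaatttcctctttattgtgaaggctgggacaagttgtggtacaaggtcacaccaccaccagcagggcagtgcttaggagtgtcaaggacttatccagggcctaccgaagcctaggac

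The Kcnj13 window had 1 match, a TATAAA whose first base lies 29 bases before the start, and a GC content of 45.2%. The Kcnk5 window had 3 matches, all GGGCGG, starting 106, 94 and 47 bases before the start, and a GC content of 62.8%. The Kcnf1 window had no match to these 6 motifs and a GC content of 51.2%, against a median of 52.4% over all 32851 windows. TATAAA was found in 12.4% of all windows of this length and GGGCGG in 32.7%. The other motifs were found in 9.99% (GATA), 6.43% (HNF1), 12.6% (HNF4) and 10.8% (CDX) of all windows. RefSeq windows were given for 63 of the 83 genes, 88 in all, and of these 3 held TATAAA and 39 held GGGCGG. The matches describe letters in these windows and say nothing of binding.

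Kcnma1, the pore of the large-conductance channel opened by calcium and voltage (BK), serves both potassium secretion by colonic surface cells and relaxation of smooth muscle. It had the largest floored difference of the 83 genes, with 8.73 in colon and 5.57 in small intestine, a difference of -3.16 or 8.92-fold. Only 1 of its 5 probe sets was above background, and the other 4 lay between 2.74 and 3.57 on both arrays. With the median over probe sets, or with the probe set of the smallest difference, the floored difference of Kcnma1 was 0. Of its known partners, only Lrrc26 and not the beta subunits could be compared with it. Lrrc26, a gamma subunit of secretory epithelia that lets the channel open at rest, had 8.05 in colon and 6.98 in small intestine (-1.07). The beta subunit of smooth muscle, Kcnmb1, was below background with 4.77 and 4.12, as were Kcnmb2 and Kcnmb4, so their floored difference is 0 by construction.

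Of 58 measured genes given a role in muscle and nerve by the same assignment, 10 lay above background, against 60.5% of all genes. Kcnf1 was the 1 gene called among the 58, against 6.78% of all genes called in either direction. Kcnf1 (Kv5.1) is an electrically silent subunit that modifies channels of the Kv2 type. It had 6.68 in colon and 4.99 in small intestine, or at least 3.21-fold higher in the colon. This call was near the rule. The floored difference of Kcnf1 was -0.68 with a background of 6, -1.44 after centring on spike-ins, -0.45 with the median over its 2 probe sets, and 0 with the probe set of the smallest difference.

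The ATP-sensitive channels, which couple membrane voltage to metabolism in muscle and endocrine cells, were above background in both tissues. Their pore subunit Kcnj8 (Kir6.1) had 7.70 in colon and 6.91 in small intestine, or 1.73-fold. The other pore subunit, Kcnj11 (Kir6.2), had 8.16 and 7.51, or 1.57-fold, from 1 of its 2 probe sets. The sulfonylurea receptor Abcc9, which assembles with Kcnj8 in smooth muscle, had 7.86 and 7.59. Abcc8, the receptor of endocrine cells, was below background with 4.03 and 3.88.

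Genes of the transient outward current were near background. Kcnd3 (Kv4.3), the pore of this current in muscle and neurons, had 5.92 in colon and 3.48 in small intestine. Kcnip4, a calcium-binding subunit of Kv4 channels, had 5.86 and 4.15. Both lay above background in the colon only, and their floored differences of -0.92 and -0.86 were not called. Without a floor they were -2.44 and -1.71, past 3-fold. Another Kv4 partner, Dpp10, was below background in both tissues, at 4.85 and 4.12.

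The other 5 muscle and nerve genes above background had floored differences under 1 in size. Kcne4, an inhibitory partner of Kcnq1, had 5.66 in colon and 5.58 in small intestine. Kcnk3 (TASK1), an acid-inhibited background channel, had 5.34 and 5.35. Kcnab2, a cytosolic beta subunit of Kv1 channels, had 4.74 in colon and 5.88 in small intestine. These 3 had floored differences of -0.08, 0.01 and 0.88. Kcnq3, a subunit of the M current that restrains firing of neurons, had 5.31 and 4.60. Kcnh3, an ether-a-go-go type channel of neurons, had 5.03 and 4.04, so it was the member closest above the background level. Kcnj16, at 5.05, was the next. The closest below it were Kcnh2 (ERG1), a channel of pacemaker and muscle cells, with 4.97 in colon and 4.28 in small intestine, and Kcnmb1.

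**Figure D2:**
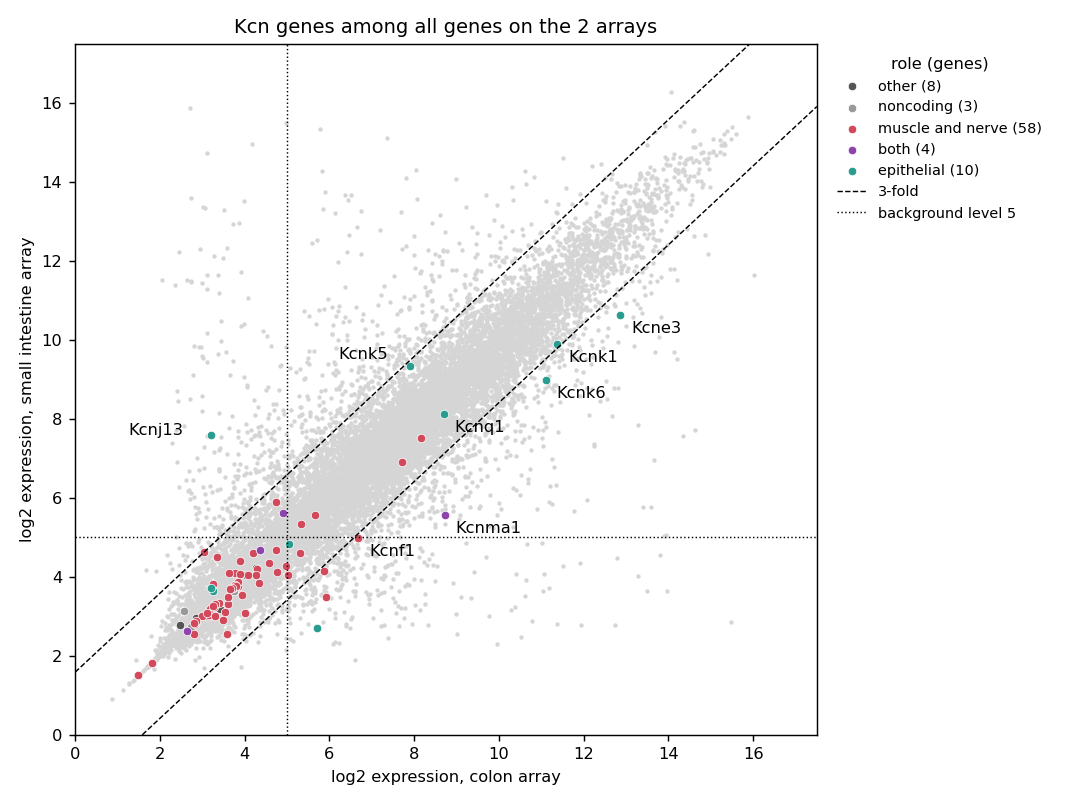
Log2 expression in colon (horizontal axis) and in small intestine (vertical axis) of all 18194 genes in grey and of the 83 Kcn genes in colours by role. Dashed lines mark 3-fold and dotted lines the background level of 5. Most points of the muscle and nerve group lie in the lower left corner below background, and Kcnj13 is the one coloured point above the upper dashed line that is also above background.

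The 63 genes at or below background on both arrays comprised 48 of the muscle and nerve group, 8 of other roles, 2 of the epithelial group, 2 of the group with both roles and the 3 noncoding transcripts. Their values ran from 1.49 to 4.97, with a median of 3.41 in colon and 3.33 in small intestine, and 19 of them came within 1 log2 unit of the background level on at least 1 array. In the probe sets used, none of the 63 differed 3-fold between the deposited values, Kcnip2 with 3.04 in colon and 4.63 in small intestine lying just under it (1.58). A probe set of Kcna1 that was not used had 4.81 in colon and 2.80 in small intestine (-2.01), both below background. Over all 18194 named genes, 7178 were at or below background on both arrays. By family, background held 26 of 31 voltage-gated pore subunits, 10 of 15 inward rectifiers, 8 of 12 two-pore-domain channels, 6 of 7 channels opened by calcium or sodium, and 10 of 15 auxiliary subunits. All 7 measured Kcna genes (the Kv1 channels of axons, muscle and lymphocytes) were among them, including the T cell channel Kcna3 with 2.48 in colon and 2.79 in small intestine. So were the small-conductance calcium-activated channels Kcnn1, Kcnn2 and Kcnn3, known from inhibitory junction potentials of gut muscle, with values from 2.92 to 3.60. A value at background says that these probe sets gave no signal above it in whole tissue, not that the channel is absent from a rare cell type.

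Of the 20 genes above background, 12 had several probe sets, and in 11 of these only 1 probe set was above background. The exception was Kcnk1. In all, 20 of 21 probe sets that were not used for these genes lay below background on both arrays. A gene's value therefore rested on a single probe set in all but 1 case, 8 genes having no other.

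**Figure D3:**
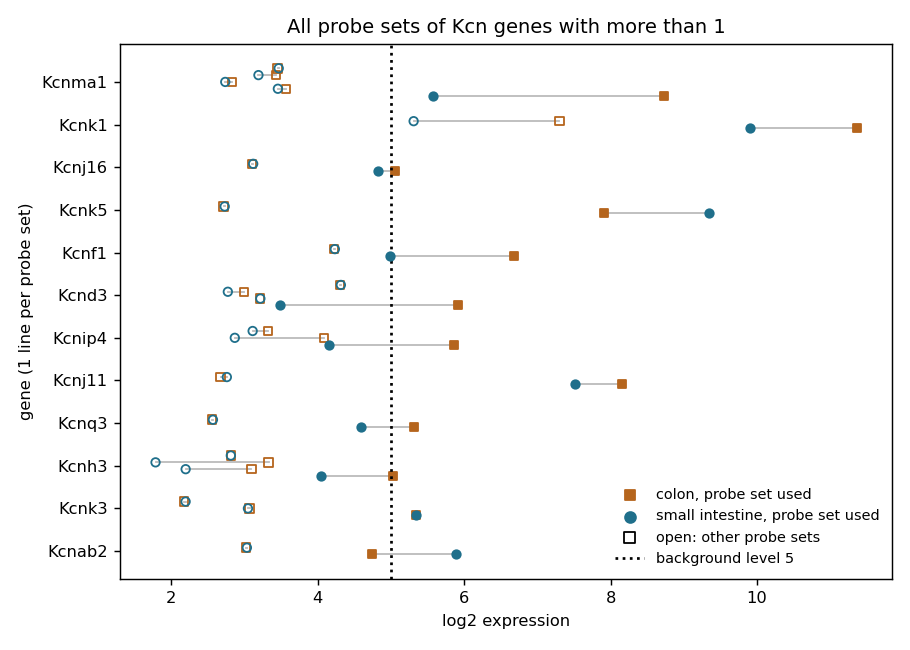
Log2 expression of every probe set of the 12 Kcn genes above background that have more than 1, on the colon array (squares) and the small intestine array (circles), with filled symbols for the probe set used and open symbols for the others. The dotted line is the background level of 5. Open symbols lie left of the line for all genes except Kcnk1, whose second probe set reads 7.30 and 5.31.

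Genes that work beside these channels were divided. Of 22 measured genes of epithelial ion transport, 6 were called, 4 of them in favour of the colon, and the median difference was -0.22. The colonic proton-potassium pump Atp12a, which takes potassium up from the lumen, had 10.77 in colon and 2.89 in small intestine, or at least 54.5-fold. Ano1, a calcium-activated chloride channel, was 21.5-fold and Nr3c2, the mineralocorticoid receptor, 3.81-fold higher there. The same Ano1 value is also counted below among the pacemaker cell markers. The chloride-bicarbonate exchanger Slc26a3 differed by -1.64. Slc26a6, another anion exchanger, was at least 91.4-fold and the sodium-glucose cotransporter Slc5a1 12.7-fold higher in the small intestine. The chloride channel Cftr, through which crypt cells secrete, had 11.69 in colon and 10.25 in small intestine (-1.44), and the cotransporter Slc12a2 had 13.35 and 12.10 (-1.25). Neither was called.

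Of 11 measured partner subunits and binding proteins of these channels, 5 lay above background and none was called. Besides Lrrc26 and Abcc9 these were the anchoring protein Akap9 (-0.49), the syntaxin Stx1a (-0.70) and the adaptor Ywhab (-0.38). None of 21 calcium, sodium and other cation channels of excitable cells was called, and 13 were below background on both arrays. Differences were -1.37 for Cacna1b, -1.24 for the sarcoplasmic reticulum regulator Pln, -1.11 for Scn7a, -1.09 for Cacna2d1 and 1.11 for Cacna1d.

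Markers of other cell types moved between the arrays as well, and their part in the differences of Kcnma1, Kcnf1 and the other channels was not tested. Of 10 smooth muscle markers, 5 were called, each in favour of the colon, with a median of -1.63 and a summed linear level of 27757 in colon and 12712 in small intestine. Cnn1 (-2.09), Myh11 (-1.95), Smtn (-1.84), Tagln (-1.82) and Actg2 (-1.82) were the 5. Of the 10, 9 had the higher value in colon, and Lmod1 (0.71) had it in small intestine. Of 10 neuron markers, Snap25 (-2.66) and Stmn2 (-1.59) were called higher in the colon, and Chat and Uchl1 were below background. Of the 8 neuron markers above background, 6 had the higher value in colon, with a median of -0.41. For 2 of them, above background in the colon only, the filter fixed this direction. The summed level was 2292 in colon and 2743 in small intestine, but Vip carried it, and the other 9, a sum taken after the values were seen, came to 664 in colon and 326 in small intestine. Of 3 measured pacemaker cell markers, Ano1 (-4.43) and Kit (-2.37) were called higher in the colon, and Gja1 (0.33) was not called. The sums were 2595 in colon and 1300 in small intestine. Without Gja1, again taken after the values were seen, they were 1644 and 106. Ano1 carried most of these, with 10.49 in colon and 6.06 in small intestine, against 7.66 and 5.29 for Kit. The 4 glial markers had sums of 111 and 108, none was called, and Sox10 and Gfap were below background.

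The 7 epithelial markers were all above 11 on both arrays, with a median difference of 0.37 and a summed level of 91194 in colon and 120209 in small intestine. Vil1 (1.60) alone was called, in favour of the small intestine. All 4 T cell markers had the higher value in small intestine and 3 were called, with sums of 147 in colon and 742 in small intestine. Of 5 endothelial and pericyte markers, Pdgfrb (2.43) was called higher in the small intestine, the sums were 3820 and 3718 (192 and 705 without Rgs5), and Pecam1 was below background. Of 5 endocrine pancreas markers, the gut hormone gene Gcg (-2.79) was called higher in the colon. The sums were 4268 and 862 (without Gcg, 281 in small intestine and less than that in colon). Iapp was above background on both arrays, with 7.77 in colon and 7.95 in small intestine, and was not called. Ins2, Pdx1 and Slc30a8 were below background on both arrays, as was the islet channel Kcnk16 (3.06 and 3.04). The exocrine pancreas signal stands beside each channel called higher in the colon, and its part in them was not tested either.

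**Figure D4:**
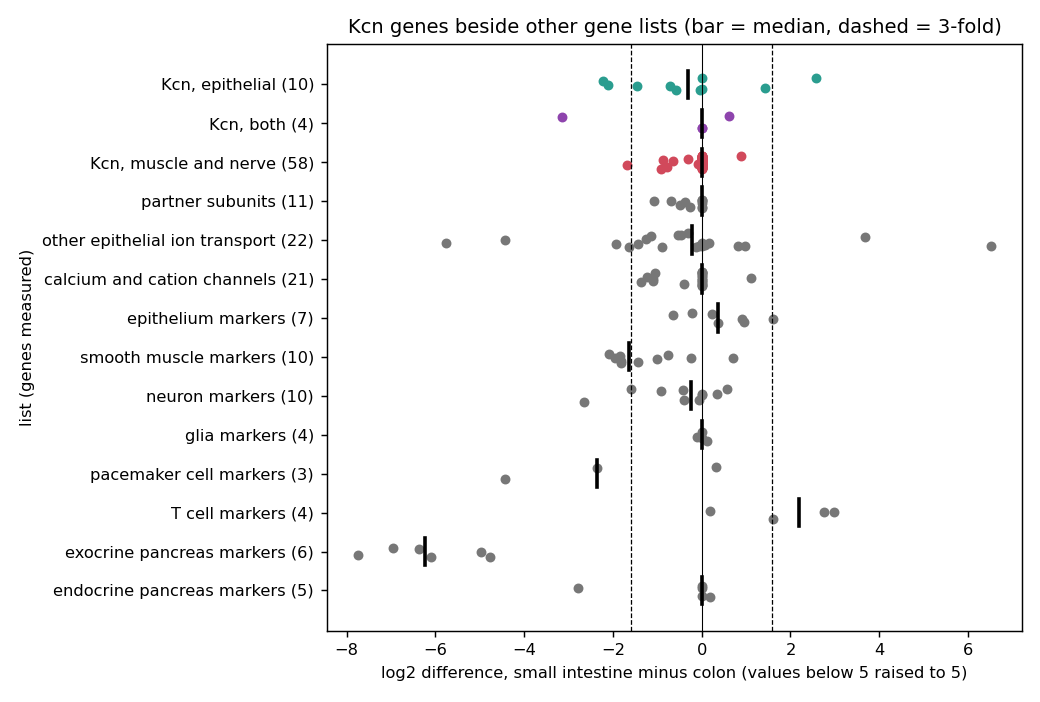
Log2 difference (small intestine minus colon, values floored at 5) of each measured gene, for the Kcn genes by role (coloured) and for other gene lists (grey). Black bars are medians over all measured genes of a list and dashed lines mark 3-fold. The medians are -0.32 for epithelial Kcn genes, 0 for those of muscle and nerve, -1.63 for smooth muscle markers and -6.24 for exocrine pancreas markers. The 0 follows from the floor, since 48 of the 58 muscle and nerve genes were below background on both arrays. The median of those above background is -0.48. Of these, 5 were above it in the colon only and 1 in the small intestine only, so the filter fixed their sign.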

How the data were processed

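The authors isolated total RNA from biopsies of colon and small intestine with RNeasy, checked it on a Bioanalyzer and hybridised it, labelled with biotin, to 1 array per tissue. The deposited values are log2 expression values per probe set. The labels name GCRMA, while RMA is given in the methods of the study, for arrays placed in another series, and no version is given. GCRMA can widen folds against a dim value. Values were used as deposited (45101 probe sets per array, median 4.01 in colon and 3.99 in small intestine), and having 1 array per tissue limits the precision.

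Probe sets were named through the platform annotation. Of these, 34958 named 1 gene, 932 with several genes were not used, and no probe set of several genes included a Kcn gene. All 83 members, with 165 probe sets, matched the RefSeq table of GRCm38.p6 by Entrez identifier. A gene was represented by its brightest probe set over both arrays. Each member above background is named, and of other lists up to 5 genes with the largest differences. Of 136 entries of those lists 118 were measured. Members, roles and lists were chosen with earlier results of these data known. The steps were tested on simulated data with less noise than the technical SDs given above. Changes were placed only in bright genes, so recovery of changes in dim genes was not covered. Python 3.11.15, numpy 2.4.6, pandas 2.3.3 and matplotlib 3.10.9 were used. Alternatives were other background levels, no floor, other folds, 3 scalings and 4 other choices of probe set.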

Additional observations from a re-analysis of the deposited data

How the results depend on the processing

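Of the 5 called channel genes, Kcne3 and Kcnk6 kept their call in all 10 alternatives that changed the differences. For both, with 1 probe set each and values above 6, only the 3 scalings could move the difference. Of the uncalled genes above background, 10 of 15 stayed uncalled in all 10, and no called difference changed sign. In place of 20 genes above background there were 39 with a level of 4, 10 with a level of 6, 12 with the median over probe sets and 9 with the probe set of the smallest difference. In place of 4 genes called higher in the colon there were 7 with a level of 4 and 7 without a floor, which in both cases added Kcnd3, Kcne2 and Kcnip4, 2 with the probe set of the smallest difference and 1 (Kcnma1) at 5-fold. In place of 1 gene called higher in the small intestine there were 2 at 2-fold and 2 after centring on spike-ins, where Kcnk5 joined Kcnj13, and 0 with a level of 6, since Kcnj13 then stood at 1.58, just under the rule. Centring on spike-ins moved a difference by 0.25 towards the small intestine where both values were above background, and by less where a value was floored. The cause of these changes was not tested, beyond that a higher floor shortens every bound. No paired analysis was possible because each tissue had 1 array.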
